A study of Mus musculus with 6 samples.

Results

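The genes described here encode the enzymes of the urea cycle and of amino acid breakdown in the liver, 49 in all, chosen by name from textbook pathways and followed across livers of fasted mice with and without Creb3l3. Probes were taken wherever the array's gene symbol was one of the 49 names. Of the 49 genes, 48 had at least 1 probe, 88 probes among the 45281 on the array. Gpt was found under its older symbol Gpt1, and Got1 was not analysed here. The filter on dim probes was passed by 46 of the 49 genes and 77 of their probes, against 10432 genes and 14345 probes on the whole array. The 2 genes with a probe that did not pass were Tat, the tyrosine aminotransferase, and Mut, the mitochondrial methylmalonyl-CoA mutase.

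The Creb3l3 KO group held livers of 3 male C57BL/6 mice deficient in Creb3l3, and the WT group those of 3 male wild-type littermates. All 6 mice were on normal chow and had been fasted for 24 h, so a fed state was not measured. CREBH, its product, is a membrane-bound factor of the endoplasmic reticulum whose cleaved fragment enters the nucleus of hepatocytes and regulates transcription. The labels used here do not give how the allele was made, nor the age of the mice. Each mouse gave 1 Illumina WG-6 bead array of whole liver, in which fewer cells of a type and less RNA per cell cannot be told apart. The comparison asks how the transcripts of these enzymes differ between fasted livers without and with CREBH.

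During a fast the liver takes up amino acids released by muscle, removes their nitrogen and passes the carbon skeletons to glucose and ketone bodies. Aminotransferases collect the nitrogen on glutamate, glutamate dehydrogenase and glutaminase release it as ammonia, and the urea cycle, which starts in the mitochondrion with Cps1, turns it into urea. Dedicated pathways break down the aromatic, branched-chain, histidine, serine and sulphur amino acids. Many of these genes are known to respond to glucagon and glucocorticoids, and the urea cycle enzymes are known to be richest around the portal vein.

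The arrays differed in brightness, and KO replicate 3 stood apart. Signals above background (detection p under 0.05) came from 11846, 15867 and 4302 probes on KO arrays 1, 2 and 3, against 15504 to 16224 on WT arrays. Pearson's r with the other arrays over all normalized log2 values was 0.676 to 0.698 for KO replicate 3, while among the other 5 arrays r was 0.971 to 0.992. Single genes are therefore given for the 5 arrays without KO replicate 3, normalized on their own, and the values from all 6 arrays stand together for the genes described in full. On these 5 arrays the Creb3l3 probe read 148 and 283 in KO replicates 1 and 2, against 1201, 949 and 929 in WT replicates 1, 2 and 3, and fell by 2.32 ± 0.15 (SE) on the log2 scale (limma, adjusted p = 0.00271). With all 6 arrays the change was -2.72 (adjusted p = 0.574). The position of the probe and that of the deletion are not stated in the labels, so this reading may not check the genotype. Of 6 hepatocyte markers, 5 had a probe and 4 were tested, and 0 passed an adjusted p of 0.05, where 0.336% of all tested genes did. Their log2 changes ran from -0.22 to 0.14 with a median of 0.0082, 2 above 0 and 2 below. With all 6 arrays the median was -0.22, beside -0.27 over all tested genes. The signal of Ttr (transthyretin), not scaled between arrays, was 19806 and 24810 in KO replicates 1 and 2, against 24761 to 26802 in WT livers. The single probe of Alb (albumin) was dim on every array, at 86.7 to 223.

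The enzyme genes were bright on 5 arrays and much dimmer on that of KO replicate 3, where 38 of the 48 were still detected, against 46 to 47 on each other array. The median deposited signal of the brightest probe of each of the 48 genes was 674, 1682 and 98.1 in KO replicates 1, 2 and 3, against 1598, 1834 and 1223 in WT replicates 1, 2 and 3. The median of all probes on an array was 83.7 for KO replicate 3 and 91.5 to 95.02 for the others. On the array of KO replicate 1 a deposited signal below WT is thus common to most of these genes, and its normalized values rest on the scaling of a dim array.

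**Figure D1:**
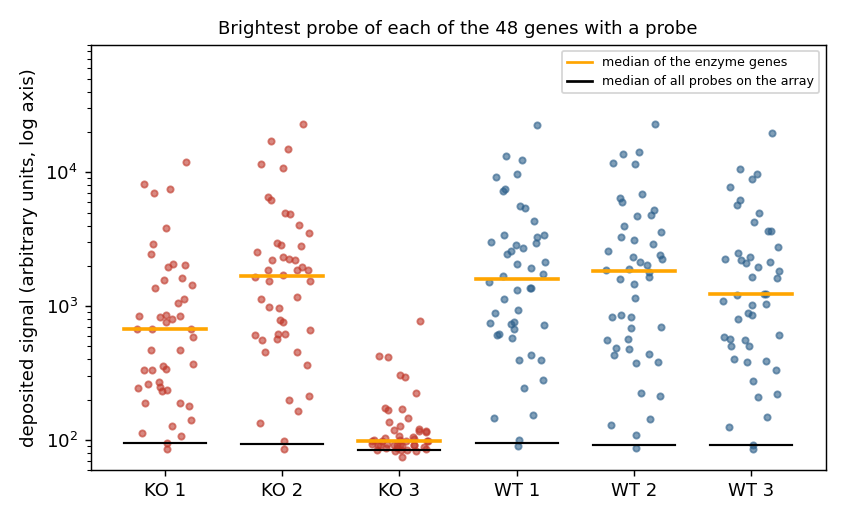
Deposited signal (arbitrary units, log axis) of the brightest probe of each of the 48 genes with a probe, on the 3 KO and 3 WT arrays. Each point is a gene, the orange line is their median and the black line the median of all probes on that array. On KO replicate 3 the gene median (98.1) lies near the array's median (83.7), and on KO replicate 1 (674) it lies between that of KO replicate 3 and those of the other arrays.

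In the fasted KO liver 0 of the 46 tested enzyme genes passed an adjusted p of 0.05 in limma, in either direction. Over all tested genes 0.336% were called, 0.0671% as higher and 0.268% as lower. Without adjustment, 5 enzyme genes had a p under 0.05, where 11.9% of all tested genes did: Sdsl, Sds and Cbs with a positive change (3, where 4.84% of all genes did so) and Hal and Amdhd1 with a negative one (2, where 7.09% did so). The median log2 change of the 46 was -0.0014, beside -0.0173 over all tested genes, with 22 above 0 and 24 below. Of the 46, 42 had a change smaller than 0.5 in either direction. The 95% interval of the change reached 0.46 to either side at the median gene (0.36 to 1.08 over the 46), and for 40 genes it lay within -1 to 1. The smallest adjusted p was 0.167, that of Hal. The groups did not overlap for 4 genes that were higher in the KO and 5 that were lower, where 13.8% and 15.5% of all tested genes were so. The 4 were Nags, Glud1, Uroc1 and Sdsl, and the 5 were Hal, Amdhd1, Mccc2, Pccb and Aldh4a1.

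Across all 6 arrays 0 of 46 passed as well. In that fit 0 genes with a positive and 2 with a negative change, Hal and Amdhd1 again, had an unadjusted p under 0.05, beside 0.597% and 3.13% of all tested genes, 3.72% in both directions together. The groups did not overlap for 1 enzyme gene higher in the KO and 5 lower, beside 4.41% and 12.7% of all tested genes. The median log2 change of the enzyme genes was -0.04 and that of all genes -0.27.

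With all 6 arrays the log2 changes of several genes described below moved, none of them passing. Those of Amdhd1 and Gpt2 were -0.66 and -0.68, and those of Mccc2 and Ddc were -1.07 and -1.27. The changes of Sds and Cbs were 0.51 and 0.40, while Ass1 stood at 0.45, beside 0.46 on the 5 arrays. Tdo2 stood at 0.0048, Haao at 0.16, Prodh at 0.18 and Aass at 0.0211. The signals of Mccc2 and Ddc on KO replicate 3 were 84.4 and 87.8, near that array's median.

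**Figure D2:**
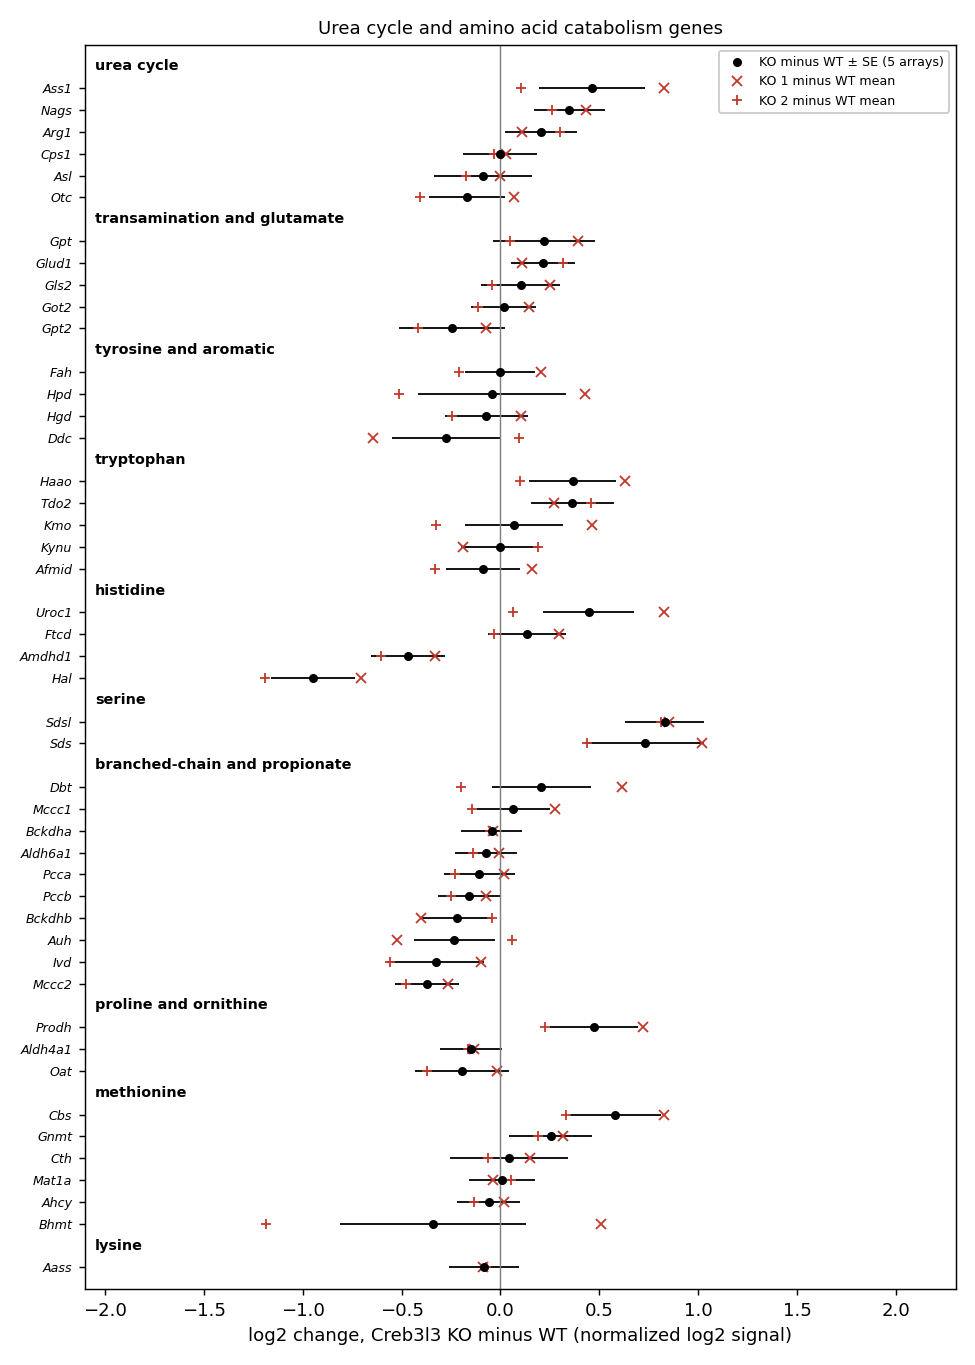
Log2 change, Creb3l3 KO minus WT, of the 46 tested enzyme genes by pathway. Black points and bars are the limma estimate ± SE from 5 arrays (2 KO, 3 WT), and red marks are the difference of KO replicate 1 or 2 from the WT mean. Estimates run from -0.95 (Hal) to 0.83 (Sdsl).

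Urea cycle genes numbered 6, all tested, and 0 passed. Their median log2 change was 0.10, with 3 above and 3 below 0. Cps1, the carbamoyl phosphate synthetase that commits ammonia to the cycle, had deposited signals of 3820 and 10775 in KO replicates 1 and 2, against 9644, 11509 and 8978 in WT replicates 1, 2 and 3. On the normalized log2 scale it stood at 13.10 ± 0.05 (SD, n = 2) in KO and 13.10 ± 0.25 (SD, n = 3) in WT livers. Both KO values lay inside the WT range, and the log2 change was -0.0016 (95% interval -0.44 to 0.43, adjusted p = 0.998).

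Ass1, which joins citrulline and aspartate, had the largest change of the cycle. Its signals were 8185 and 11516 in KO replicates 1 and 2, against 9215, 11762 and 7815 in WT livers, and its normalized values were 13.49 ± 0.51 (SD, n = 2) in KO and 13.03 ± 0.33 (SD, n = 3) in WT. The groups overlapped, and the change was 0.46 ± 0.27 on the log2 scale (SE, limma adjusted p = 0.508). KO replicate 1 stood 0.83 above the WT mean and KO replicate 2 stood 0.10 above it.

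The other members were Nags, which makes the activator of Cps1, at 0.35, Arg1, the arginase that releases urea, at 0.21, Asl, which cleaves argininosuccinate, at -0.09, and Otc, which makes citrulline, at -0.17. At this probe of Nags both KO values lay above all WT values (adjusted p = 0.478). Its other 2 tested probes stood at 0.12 and -0.01 with overlapping groups. A dimmer probe of Arg1 stood at 0.40 (limma adjusted p = 0.425), with both KO values above all WT values, while the groups overlapped at its brightest probe. Across all 6 arrays the change of Nags was -1.08 and that of Otc -0.93. On KO replicate 3 their deposited signals were 83.2 and 85.1, near that array's median.

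The genes around glutamate, 5 tested of 6, also had 0 calls and a median of 0.10. Gpt2, the mitochondrial alanine aminotransferase, was lowest, with signals of 472 and 1162 in KO replicates 1 and 2, against 1374, 1799 and 1040 in WT livers. After normalization KO replicate 1 lay inside the WT range and KO replicate 2 below it, and the change was -0.24 ± 0.27 (SE, adjusted p = 0.73). The cytosolic alanine aminotransferase Gpt stood at 0.22, glutamate dehydrogenase Glud1 at 0.21, the liver glutaminase Gls2 at 0.10 and the mitochondrial aspartate aminotransferase Got2 at 0.02. Glud1 was the one gene of the group whose KO and WT values did not overlap (adjusted p = 0.603).

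Histidine breakdown held the enzyme gene with the smallest p, Hal. Its 4 enzymes act in sequence: Hal removes the amino group of histidine, Uroc1 hydrates urocanate, Amdhd1 opens the imidazolone ring and Ftcd passes the formimino group to folate. Hal, Amdhd1 and Ftcd lie on chromosome 10, as do Creb3l3 and the enzyme genes Arg1 (0.21) and Gls2 (0.10) of other pathways. Hal and Amdhd1 are adjacent protein-coding genes in the RefSeq annotation of GRCm38.p6. The labels do not state whether sequence of another strain flanks the Creb3l3 allele, and its part in the values of these genes was not tested. Shown are the bases before the annotated start of the 4 genes (RefSeq, GRCm38.p6, 5′ to 3′ along each gene), since this pathway holds Hal and Amdhd1, the 2 genes with a negative change at an unadjusted p under 0.05. The stretches of Uroc1 and Amdhd1 stop short of the 250 bases, at the first annotated base of the gene. TGACG, the core of a cAMP response element, is in capitals where it occurs on either strand.
Hal, chr10:93488518-93488767, plus strand: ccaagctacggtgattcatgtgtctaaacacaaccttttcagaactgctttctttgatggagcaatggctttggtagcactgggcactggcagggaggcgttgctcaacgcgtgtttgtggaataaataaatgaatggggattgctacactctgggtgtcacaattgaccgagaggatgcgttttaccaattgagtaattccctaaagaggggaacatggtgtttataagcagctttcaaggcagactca
Uroc1, chr6:90333039-90333238, plus strand: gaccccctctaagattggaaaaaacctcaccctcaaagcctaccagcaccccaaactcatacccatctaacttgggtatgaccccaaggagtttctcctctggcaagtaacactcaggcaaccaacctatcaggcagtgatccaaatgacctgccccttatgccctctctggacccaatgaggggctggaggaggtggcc
Amdhd1, chr10:93540112-93540283, minus strand: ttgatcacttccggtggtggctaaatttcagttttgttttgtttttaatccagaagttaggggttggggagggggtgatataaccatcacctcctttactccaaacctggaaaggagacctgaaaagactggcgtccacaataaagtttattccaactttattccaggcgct
Ftcd, chr10:76575398-76575647, plus strand: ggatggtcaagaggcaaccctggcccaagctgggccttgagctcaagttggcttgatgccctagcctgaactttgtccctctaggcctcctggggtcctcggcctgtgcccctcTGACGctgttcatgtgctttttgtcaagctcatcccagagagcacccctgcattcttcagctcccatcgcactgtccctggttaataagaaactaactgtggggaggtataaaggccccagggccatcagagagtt

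In the full window of 250 bases before the listed start, which for Uroc1 and Amdhd1 runs past the stretches shown, TGACG on either strand was found in 3 of the 37 enzyme genes with an entry (8.11%), Ftcd, Pcca and Aass, and in 17.8% of all 32851 promoters. The full element TGACGTCA, which contains TGACG, was found in 0 of the 37 and in 1.55% of all promoters. CCACG, the second part of an endoplasmic reticulum stress element, was found in 12 of the 37 (32.4%) and in 28.3% of all promoters. These are matches of letters in a window and say nothing of binding. An enzyme gene with several promoter entries counted if any of them matched, while the shares over all promoters count each entry.

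Hal, histidine ammonia-lyase, was measured by 2 probes that moved in opposite directions. Its brighter probe, ILMN_2984332, had deposited signals of 679 and 1542 in KO replicates 1 and 2, against 3404, 3297 and 2496 in WT replicates 1, 2 and 3. The dimmer probe, ILMN_1241298, had 1020 and 1896 in KO replicates 1 and 2, against 1005, 1060 and 861 in WT livers. On the array of KO replicate 2, which was as bright as the WT arrays, the brighter probe read below every WT array and the dimmer probe above every one. After normalization the brighter probe stood at 10.43 ± 0.35 (SD, n = 2) in KO and 11.38 ± 0.21 (SD, n = 3) in WT, a log2 change of -0.95 ± 0.21 (SE, adjusted p = 0.167). For the dimmer probe the values were 10.89 ± 0.54 in KO and 9.64 ± 0.23 in WT, a log2 change of 1.26 ± 0.25 (adjusted p = 0.139). The KO and WT values overlapped for neither probe, and neither passed. Across all 6 arrays the changes were -1.42 and 1.18, both with an adjusted p of 0.653. The mean of both probes had a log2 change of 0.15, the opposite direction to the brighter probe, so a direction for Hal as a gene is not given here.

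The difference between 2 probes of a gene on the same array cancels what scales both alike. After the probes of Hal had been seen to disagree, this difference was fitted with limma for each further tested probe against the brightest probe of its gene, 3913 pairs of 2854 genes on the 5 arrays. For Hal the dimmer minus the brighter probe was 0.60 and 0.32 on the log2 scale in KO replicates 1 and 2, against -1.88, -1.73 and -1.61 in WT replicates 1, 2 and 3. Both KO differences were higher than every WT difference, and the sign of a difference, which sets one probe's level against another's, is not read. The change in the difference was 2.20 ± 0.19 (SE, adjusted p = 0.0191), the smallest p of the 3913 pairs, of which 2 (0.0511%) were called. Of the 31 pairs from 22 enzyme genes, that of Hal was the 1 called, and 2 had an unadjusted p under 0.05, where 7.87% of all pairs did. On the array of KO replicate 3, which this fit did not use, both probes were detected and the difference was 1.65 when all 6 arrays were normalized together. The deposited signals of the brighter and dimmer probe there were only 93.6 and 109, near that array's median of 83.7. This value thus rests on the scaling of a dim array. The fit of all 6 arrays gave a change of 2.60 with an adjusted p of 0.705, and leaving out any 1 WT mouse gave 2.15 to 2.27 with an adjusted p of 0.186 to 0.377. The positions of these probes on the transcripts of Hal were not analysed here.

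**Figure D3:**
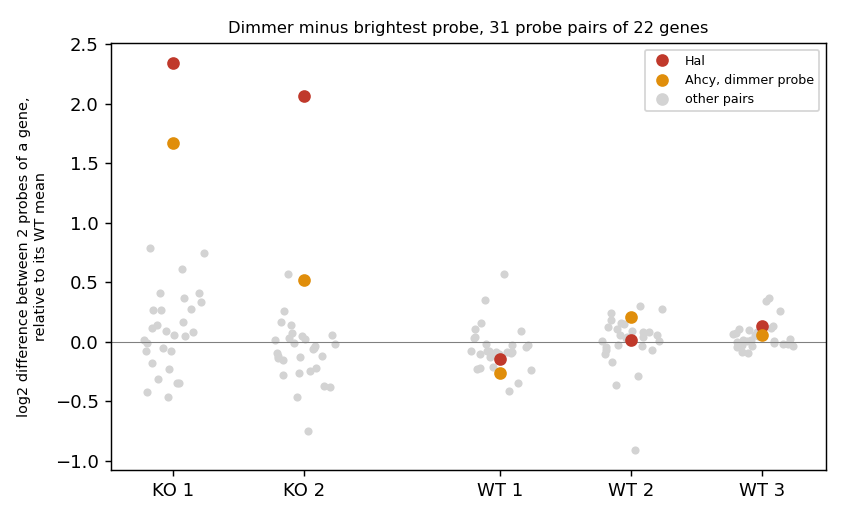
Log2 difference between the dimmer and the brightest probe of a gene on the same array, relative to its WT mean, for 31 pairs of 22 enzyme genes on 2 KO and 3 WT arrays. Each point is a pair, with Hal in red (a change of 2.20, KO minus WT), 1 pair of Ahcy in orange (1.09) and the other pairs in grey.

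Of the other histidine enzymes, Amdhd1 had signals of 588 and 1538 in KO replicates 1 and 2, against 2149, 2239 and 1822 in WT livers. Both KO values lay below all WT values, also after normalization, with 10.32 ± 0.20 (SD, n = 2) in KO and 10.79 ± 0.19 (SD, n = 3) in WT. The log2 change was -0.47 ± 0.18 (SE, adjusted p = 0.393). Uroc1 stood at 0.45 (adjusted p = 0.478), its groups apart, with KO replicate 1 0.83 and KO replicate 2 0.06 above the WT mean. Ftcd stood at 0.13 (adjusted p = 0.804). As a list the 4 had 0 calls. Their median was -0.17 with Hal at its brighter probe, 0.14 with Hal at the mean of its probes and 0.29 with Hal at its dimmer probe, so its sign rests on the probe of Hal.

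Serine and threonine dehydratases had the highest log2 changes among the brightest probes of the enzyme genes, below those of the dimmer probes of Hal (1.26) and Ahcy (1.04). Sds, serine dehydratase, makes pyruvate from serine for gluconeogenesis, and Sdsl is its close relative, encoded by the adjacent gene on chromosome 5. Sdsl had signals of 234 and 619 in KO replicates 1 and 2, against 397, 376 and 275 in WT livers. Its normalized values were 8.76 ± 0.03 (SD, n = 2) in KO and 7.93 ± 0.29 (SD, n = 3) in WT, and both KO values lay above all WT values. The log2 change was 0.83 ± 0.20 (SE, adjusted p = 0.203), and across all 6 arrays it was 0.32.

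Sds had signals of 1059 and 2207 in KO replicates 1 and 2, against 1359, 2018 and 1242 in WT livers. On the normalized scale it stood at 11.03 ± 0.41 (SD, n = 2) in KO and 10.30 ± 0.49 (SD, n = 3) in WT. KO replicate 2 lay just below WT replicate 2, so the groups overlapped, and the log2 change was 0.73 ± 0.30 (SE, adjusted p = 0.398). A second probe of Sds gave 0.90 (adjusted p = 0.382). Whether the probes of Sds and Sdsl separate these related transcripts was not tested.

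**Figure D4:**
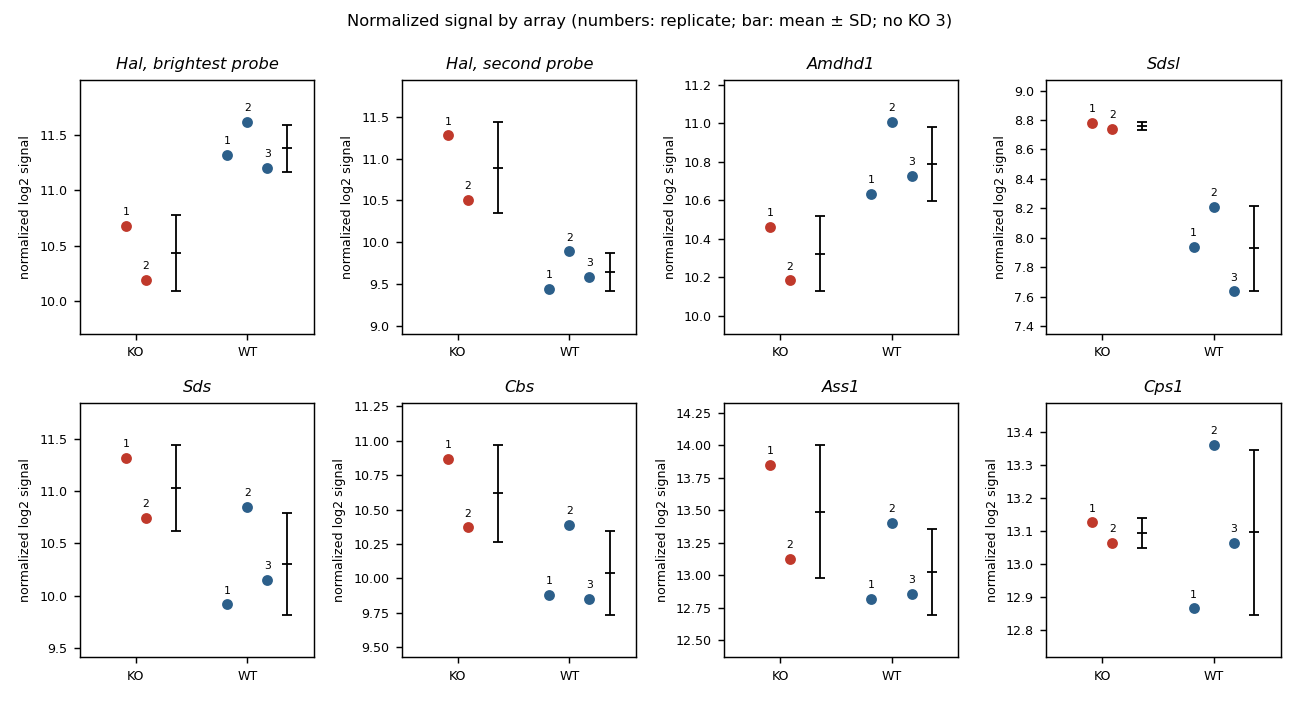
Normalized log2 signal of 7 enzyme genes on each KO array (red, left) and WT array (blue, right), with replicate numbers beside the points and the mean ± SD as a bar; Hal has a panel for each probe. KO and WT points are apart in the panels of Hal, Amdhd1 and Sdsl, and overlap in range in those of Sds, Cbs, Ass1 and Cps1.

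Methionine and sulphur amino acid genes, 6 tested, had 0 calls and a median of 0.03. Cbs, cystathionine beta-synthase, which commits homocysteine to cysteine, had signals of 765 and 1710 in KO replicates 1 and 2, against 1332, 1473 and 1022 in WT livers. Its normalized values were 10.62 ± 0.35 (SD, n = 2) in KO and 10.04 ± 0.30 (SD, n = 3) in WT, with the lower KO value beside the highest WT value. The log2 change was 0.58 ± 0.23 (SE, adjusted p = 0.394), and its second probe gave 0.49.

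Around it in the cycle, Gnmt, which disposes of excess methyl groups, stood at 0.25. Its dimmer probes stood at 0.53 (limma adjusted p = 0.398) and -0.04. Cth, which releases cysteine, stood at 0.04 and the S-adenosylmethionine synthetase Mat1a at 0.01. Ahcy, which splits S-adenosylhomocysteine, stood at -0.06 at its brightest probe and at 1.04 at a dimmer one (adjusted p = 0.355). That dimmer probe had signals of 822 and 1106 in KO replicates 1 and 2, against 755, 860 and 707 in WT. Within arrays its difference from the brightest probe changed by 1.09 (adjusted p = 0.61). Bhmt, which remethylates homocysteine with betaine, varied most between KO livers: its signals were 2029 and 1964 in KO replicates 1 and 2, against 3311, 5189 and 3668 in WT, and its log2 change was -0.34 ± 0.47 (SE). After normalization KO replicate 1 lay 0.51 above the WT mean and KO replicate 2 1.19 below it.

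Branched-chain and propionate genes, 10 tested of 11, had 0 calls, a median of -0.13 and 8 of 10 values below 0. Mccc2, a subunit of the carboxylase of leucine breakdown, was lowest. It had signals of 128 and 199 in KO replicates 1 and 2, against 244, 224 and 210 in WT livers, and both KO values lay below all WT values. The log2 change was -0.37 ± 0.16 (SE, adjusted p = 0.416). Ivd, the dehydrogenase that acts just before it, stood at -0.33, Auh, a hydratase of the same pathway, at -0.23, and the dehydrogenase subunits Bckdhb, Bckdha and Dbt at -0.22, -0.04 and 0.21. The partner subunit Mccc1 stood at 0.06. Pcca and Pccb, the subunits of propionyl-CoA carboxylase, stood at -0.11 and -0.16, and Aldh6a1, of valine breakdown, at -0.07. Mut had 2 probes with signals of 80.5 to 95.5, detected on no array.

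Tyrosine and aromatic amino acid genes, 4 tested of 5, had 0 calls and a median of -0.06. Ddc, the aromatic amino acid decarboxylase, had signals of 232 and 976 in KO replicates 1 and 2, against 767, 836 and 885 in WT livers. KO replicate 1 read below all WT arrays and KO replicate 2 above them, but after normalization KO replicate 2 lay inside the WT range, and the log2 change was -0.27 ± 0.27 (SE, adjusted p = 0.702). Hgd, homogentisate dioxygenase, stood at -0.07, Hpd, which makes homogentisate, at -0.04, and Fah, the last enzyme of the pathway, at -0.0012. A dimmer probe of Hgd stood at -0.62 (adjusted p = 0.49). The probe of Tat read 85.5, 97.7 and 74.5 in KO replicates 1, 2 and 3, against 99.7, 108 and 92.4 in WT, and was detected on 0 KO and 2 WT arrays. It thus gave no usable level for this glucocorticoid-responsive gene.

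Tryptophan genes, all 5 tested, had 0 calls and a median of 0.07. Haao, which makes the precursor of quinolinate, had signals of 846 and 1875 in KO replicates 1 and 2, against 1940, 1642 and 1231 in WT livers. After normalization the groups overlapped, and the change was 0.36 ± 0.22 on the log2 scale (SE, adjusted p = 0.523). Tdo2, the dioxygenase that opens the pathway, also stood at 0.36 (adjusted p = 0.508), Kmo at 0.07, Kynu at 0.0001 and Afmid at -0.09. For Afmid, whose 7 tested probes ran from -0.12 to 0.39, KO replicate 1 was higher than KO replicate 2 at every probe.

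Proline, ornithine and lysine genes completed the set, with 0 calls. Prodh, proline dehydrogenase, had signals of 360 and 790 in KO replicates 1 and 2, against 669, 691 and 505 in WT livers, and a log2 change of 0.47 ± 0.22 (SE, adjusted p = 0.448) with overlapping groups. The next enzyme of proline breakdown, Aldh4a1, stood at -0.15 and the ornithine aminotransferase Oat at -0.19. Aass, which starts lysine breakdown, had signals of 188 and 451 in KO replicates 1 and 2, against 432, 441 and 390 in WT livers. Its change was -0.08 ± 0.18 (SE, adjusted p = 0.872), and the KO values lay inside the WT range after normalization.

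The KO replicates differed from each other over the set. The median difference of the 46 genes from the WT mean was 0.11 for the dim KO replicate 1 and -0.07 for the bright KO replicate 2, where over all tested genes these medians were -0.07 and 0.03. With KO replicate 1 as the lone KO array, limma called 3 enzyme genes higher (Uroc1, Sdsl and Cbs) and 1 lower (Hal), while 15.9% of all tested genes were called. With KO replicate 2 alone it called 0, while 0.301% of all genes were called. These fits assume that the lone KO array varies like the WT arrays. The part of array brightness in the calls was not tested.

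A further 57 genes of amino acid metabolism were followed for comparison, of which 47 were tested and 0 passed at the brightest probe. Their median log2 change was -0.04. At an unadjusted p under 0.05, 3 had a positive and 3 a negative change, where 4.84% and 7.09% of all tested genes did so. Asns, asparagine synthetase, which makes rather than degrades an amino acid, stood highest at 2.34 ± 0.43 (SE, adjusted p = 0.0992). Its signals were 122 and 422 in KO replicates 1 and 2, against 125, 106 and 95.4 in WT livers. Only KO replicate 2 stood clear of the WT signals before normalization, and 1 of the WT arrays did not detect the probe. A dimmer probe of Asns was called at 1.54 (adjusted p = 0.0236), with signals of 110 and 174 in KO, against 101, 95.3 and 94.3 in WT, detected on 1 of 3 WT arrays. With all 6 arrays the brighter probe stood at 1.70 and the dimmer one at 0.87, both with an adjusted p of 0.653.

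The others with a small p did not pass. Ethe1, of sulphide oxidation, stood at 0.89 (adjusted p = 0.308) and Qdpr, which regenerates the cofactor of phenylalanine hydroxylase, at 0.59 (adjusted p = 0.303). Ppm1k, the phosphatase that activates branched-chain keto acid dehydrogenase, stood at -0.59 (adjusted p = 0.296), and Bckdk, the kinase that inhibits it, at -0.46 (adjusted p = 0.333). Dimmer probes of Ppm1k stood at -1.27 and -0.80 (limma adjusted p = 0.241 and 0.159), each detected on 1 of 3 KO arrays. A second probe of Bckdk stood at 0.30. Bhmt2, a relative of Bhmt, stood at -0.49 (adjusted p = 0.35).

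Of 11 regulators of these genes 9 were tested, and beside Creb3l3 none passed. The glucagon receptor Gcgr stood at -0.56 ± 0.20 (SE, adjusted p = 0.355) with signals of 150 and 324 in KO replicates 1 and 2, against 528, 324 and 328 in WT. Klf15, a factor that drives amino acid catabolism in fasting, stood at 0.0026, and Hnf4a, a hepatocyte identity factor, at 0.17.

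Markers of the position of hepatocytes along the lobule were set beside the urea cycle. Of 9 periportal genes, 7 of them enzyme genes described above, 1 was called, as lower, where 0.268% of all tested genes were. It was Pck1, the gluconeogenic phosphoenolpyruvate carboxykinase, at -1.73 ± 0.21 (SE, limma adjusted p = 0.0227). With Hal at its brighter probe, 4 of the 9 lay above 0 and 5 below. Groups were apart for 2 lower and 0 higher in the KO, beside 15.5% and 13.8% of all tested genes. At an unadjusted p under 0.05, 2 had a negative and 1 a positive change, where 7.09% and 4.84% did so. With all 6 arrays Pck1 stood at -3.19 and did not pass (adjusted p = 0.653). The periportal median was -0.0016 with Hal at its brighter probe (-0.95), while the dimmer probe of Hal stood at 1.26, so its sign rests on the probe of Hal. Summed deposited signals of the list, not scaled between arrays, were 25373 and 55894 in KO replicates 1 and 2, against 44319 to 55198 in WT. Of 8 pericentral genes, Oat among them, 6 were tested and 0 passed. All 6 lay below 0, as did 5496 of all 10432 tested genes, and their median was -0.24. For 3 the groups did not overlap and the KO was lower, where 15.5% of all tested genes were so. A negative change at an unadjusted p under 0.05 was seen for 2, where 7.09% did so. With all 6 arrays 5 lay below 0, with a median of -0.31, beside -0.27 over all tested genes. Summed deposited signals, not scaled between arrays, were 14727 and 27862 in KO replicates 1 and 2, against 32442 to 36176 in WT livers. Cyp2e1, a pericentral cytochrome P450, stood at -0.47 (adjusted p = 0.333), and Glul, the pericentral glutamine synthetase that takes up ammonia the urea cycle leaves, at -0.15 (adjusted p = 0.872).

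Markers of other cells gave 0 calls in each list. Medians were 0.09 for 7 Kupffer cell genes, 0.07 for 6 endothelial genes, 0.27 for 2 cholangiocyte genes, 0.21 for 4 stellate and fibroblast genes and -0.64 for 3 erythroid genes, and the 1 tested leukocyte gene stood at 0.50. Of the 7 Kupffer cell genes, 6 lay above 0. For 3 the groups did not overlap and the KO was higher, where 13.8% of all tested genes were so. A positive change at an unadjusted p under 0.05 was seen for 2 (Marco at 0.95 and Adgre1 at 0.69), where 4.84% did so. With all 6 arrays the Kupffer median was -0.78, beside -0.27 over all tested genes, with 2 above 0 and 5 below. In that fit 0 of them were apart and 0 had an unadjusted p under 0.05. The erythroid median was -1.33 for KO replicate 1 and -0.0021 for KO replicate 2, each against the WT mean. Their part in the values of the enzyme genes was not tested.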

How the data were processed

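Liver RNA was prepared with Trizol and a column and labelled as biotin-cRNA, per the labels' protocols. Per the file headers the deposited tables give an average signal per probe, an intensity on a linear scale that by its values is not normalized, and a detection p-value per array. The software was BeadStudio 3 per the submitters' processing notes. The authors' value table, also of linear intensity values, had nearly equal column medians (91.64 to 91.73), with columns of WT replicates 2 and 3 exchanged relative to the array tables, and its method is not stated.

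With limma 3.58.1 (R 4.3.3) the signals went through the steps of neqc: normexp background from detection p-values, offset 16, quantile normalization and log2. Testing, for probes detected (p under 0.05) on 3 or more arrays, used lmFit and eBayes, genotype as the only term, two-sided, with Benjamini-Hochberg adjustment over all tested probes. A gene was represented by its brightest tested probe. No group was large enough for an exact permutation test to pass, since 2 KO arrays stood against 3 WT arrays. The number of arrays limits the precision. Mice are the replicates. Steps were tested on simulated data, and figures drawn with matplotlib 3.10.9.

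The enzyme genes, gene lists and the use of 5 arrays were chosen with earlier results of these data known. Values by array are given for enzyme genes with an unadjusted p under 0.05, the largest change of each of 10 pathways, and Cps1, Tat and Creb3l3. Bhmt, Ahcy, Marco, Adgre1 and the second probe of Hal were added after their values were seen.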

Additional observations from a re-analysis of the deposited data

How the results depend on the processing

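The count of 0 called enzyme genes in the 5 arrays ranged from 0 to 4 when single mice were left out, the 4 arising with KO replicate 1 as the lone KO array, and was 1 (Hal, lower) with a trended and robust variance. In the 6 arrays it was 9 with array weights, 8 higher and 1 lower, when 18.9% of all genes were called. Counts with a lone KO array stand above, and the other settings gave 0 in both. Median scaling moved the median of all tested genes to -0.44 and that of the enzyme genes to -0.68, and the cause was not tested. Over all genes, the 7 higher and 28 lower calls of the 5 arrays became 573 and 985 with KO replicate 1 as the lone KO array, 0 and 2 under median scaling, and 0 and 0 with all 6 arrays. The other amino acid genes had 0 calls without any 1 WT mouse. They had 1 call, Asns, with the mean of a gene's probes and with the replicate block, where 0.441% and 0.364% of all tested genes were called. With KO replicate 1 or 2 as the lone KO array, Asns stood at 1.54 and 3.23. Creb3l3 stood at -2.72 with all 6 arrays and at -2.97 under median scaling, without passing.

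The difference between the probes of Hal was 2.05 to 2.34 without single mice. It kept its direction in 17 of 17 settings and its call in 9. The call was lost without each WT mouse, with all 6 arrays (2.60), under median scaling (2.20), with no filter (2.20), with the replicate block (2.27, adjusted p = 0.0516) and with that block after exchanging WT replicates 2 and 3 (2.21). Same-numbered KO and WT arrays deviated together at r of -0.045, -0.048 and 0.037 over probes of the 6 arrays. With 3 arrays in a group and KO replicate 3 apart from the rest, these values cannot decide whether the numbers pair the mice. With the block 0 enzyme genes were called.

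Directions of small changes turned. Without single mice Cps1 ranged from -0.12 to 0.13 (0.0143 without KO replicate 2), Aass from -0.19 to 0.0207, Gpt2 from -0.42 to 0.0188 and Ddc from -0.65 to 0.0939. Cps1 stood at 0.0434 under cyclic loess, 0.024 with array weights and 0.13 with the exchanged replicate block, in which Aass stood at 0.0219 and Gpt2 at 0.0175. With all 6 arrays Aass stood at 0.0211. Hal stood at 0.15 as the mean of its probes. Under median scaling Cbs stood at -0.17, Haao at -0.36 and Prodh at -0.28. The cause was not tested. Probes near background limit Tat, Mut and Asns. The exchanged block, the test of probe pairs and the histidine median by probe of Hal were chosen after seeing the data.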
